A study of Homo sapiens with 30 samples.

Results

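The transcripts described here are those of 47 genes that copy DNA and divide the cell, 32 for DNA replication and 15 for mitosis, named in a gene list and matched by Ensembl identifier in both count tables. The tables list 60675 and 58051 genes, of which 17542 and 14490 had enough counts to be tested, and all 47 genes passed that filter in both. The replication genes comprise 10 for licensing of origins, 6 for activating the replicative helicase, 9 for the fork, 3 for nucleotide supply and 4 regulators of entry into S phase. The mitosis genes comprise 5 of the mitotic cyclin and CDK1 program, 4 of mitotic kinases and their complexes, 4 of the spindle checkpoint and mitotic exit, and 2 of mitotic chromosomes.

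RNA was sequenced from 30 libraries of human acute myeloid leukemia cell lines, in 10 groups of 3. MV4-11 and Molm-14 carry an internal tandem duplication of the receptor tyrosine kinase gene FLT3 (FLT3-ITD), and THP-1 does not. The overexpression series used MV4-11 and Molm-14, each transduced with a lentivirus whose EF1a promoter drives GFP together with MIR1-2 host sequence, to produce the microRNA miR-1 (OE), or with the GFP vector alone (EV). The knockout series used all 3 lines, each with lentiCRISPRv2 carrying GFP and 1 guide against MPC1, a subunit of the mitochondrial pyruvate carrier (KO), or with the empty version of it (EV). All groups were cultured in RPMI medium and carried a GFP vector, so no group is without virus. The labels do not say whether the 3 libraries of a group came from separate infections, clones or cultures, so the p-values measure the spread between these libraries, which may be technical.

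Before S phase, the origin recognition complex with CDC6 and CDT1 loads the MCM helicase onto DNA. CDC45, the GINS complex and other factors then turn the helicase on, polymerases copy both strands behind it, and the clamp PCNA keeps the polymerases on their template. E2F transcription factors switch on many of these genes in late G1. Cyclin A, cyclin B and CDK1 drive entry into mitosis, the Aurora and Polo kinases build the spindle, and CDC20 starts the exit from mitosis once every chromosome is attached. In proliferating leukemia cells, transcripts of both classes are abundant.

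Libraries of the overexpression series held 15543301 to 20939985 counts, and those of the knockout series 5339360 to 9106478. Levels are given as CPM, the counts in a library of 1000000 after scaling by the trimmed mean of M-values within a series, and levels are not compared between the series. All 8 myeloid markers checked exceeded 1 CPM in every library. MV4-11 OE replicate 1 and MV4-11 EV replicate 3 stood apart from the other overexpression libraries: the mean log2 CPM of a list of interferon-stimulated genes was 5.33 and 2.81 in them, against 0.23 to 0.45 in the other 4 MV4-11 libraries and 1.34 to 1.54 in the 6 of Molm-14. Effects are log2 fold changes from edgeR's quasi-likelihood test, each with its standard error (SE), and a gene is called where the Benjamini-Hochberg adjusted p over all genes tested (FDR) is below 5%.

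The guide's target was lower in every KO group. MPC1 was at 56.4, 58.3 and 53.7 CPM in MV4-11 EV and at 26.0, 24.8 and 23.5 in KO. The fitted KO level was 44.1% of EV in MV4-11, 48.5% in Molm-14 and 55.8% in THP-1 (FDR 1.3282e-08, 3.4146e-08 and 6.3207e-06). MIR1-2 was counted 0 times over the 12 OE and EV libraries of the other series, so the overexpression itself cannot be checked here.

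Promoter sequences are shown for the genes the results turn on, because many replication and mitosis genes carry known cell cycle motifs near their start sites. RefSeq promoters of 300 bases (GRCh38, 250 before and 50 after the start) were found for 39 of the 47 genes. An E2F motif (TTTCCCGC, TTTCGCGC, TTTGCCGC or TTTGGCGC, on either strand) was present in 17 of 28 replication promoters (60.7%) and 1 of 11 mitosis promoters (9.09%), against 3.33% of all 27305 promoters. The cell cycle homology region (CHR, TTTGAA or TTCGAA, on either strand) was present in 8 of 11 mitosis promoters (72.7%) and 2 of 28 replication promoters (7.14%), against 16.6% of all. CCAAT, searched on both strands, was in 10 of 11 mitosis promoters (90.9%) and 18 of 28 replication promoters (64.3%), against 35.7% of all. All 47 genes are protein-coding, and of 15843 promoters of protein-coding genes 4.44% held an E2F motif, 13.5% a CHR and 36.4% CCAAT. None of these motifs contains another. The windows below are read 5′ to 3′ on the strand of the gene, with the motif in capitals, and each match is a match of letters only.
PCNA, E2F motif, chr20:5126664-5126691, minus strand: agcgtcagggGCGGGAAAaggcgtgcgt
GINS2, E2F motif, chr16:85688968-85688995, minus strand: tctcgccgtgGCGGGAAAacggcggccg
MCM6, E2F motif, chr2:135876512-135876539, minus strand: gtcaggtttgGCGCGAAAtctccagctc
MCM2, E2F motif, chr3:127598403-127598430, plus strand: gtgaaccactTTTCGCGCgaaacctggt
CDK1, E2F motif, chr10:60778340-60778367, plus strand: ttcctctttcTTTCGCGCtctagccacc
CDK1, CHR, chr10:60778159-60778186, plus strand: agtataataaaTTTGAActgtgccaatg
PLK1, CHR, chr16:23678849-23678876, plus strand: ccagcgccgcgTTTGAAttcggggagga
CDK1, the kinase of mitotic entry, is the 1 mitosis gene whose window held an E2F match, and it held a CHR match as well. MCM6, a subunit of the helicase ring, also held both.

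Beside these, the seed of the overexpressed microRNA and its matches among the 47 genes are shown, since the overexpression series tests whether miR-1 moves the transcripts. The capitals mark bases 2 to 8 of the microRNA and, in the 3′ UTRs of the canonical transcripts of GENCODE 44 (GRCh38), the letters that pair with them, together with the A opposite base 1 where it is present.
hsa-miR-1-3p: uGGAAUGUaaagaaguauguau
ORC6, chr16:46697599-46697622, plus strand: actggtatACATTCCAaactgata
POLA1, chrX:24996575-24996597, plus strand: ttacactcACATTCCctttttgc
MKI67, chr10:128097136-128097158, minus strand: gtaataggACATTCCcattaaat
With GINS4, these are the 4 of 47 genes (8.51%) whose 3′ UTR held a match of at least 7 bases to the seed, against 11.5% of 19959 genes with a 3′ UTR. ORC6, a subunit of the origin recognition complex, has the longest match, 8 letters.

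Levels of 8 genes that represent the classes were compared among the lines first. PCNA, the sliding clamp, was at 494 ± 38.4 CPM in MV4-11 EV, 449 ± 24.8 in Molm-14 EV and 146 ± 14.4 in THP-1 EV of the knockout series (SD, n = 3 here and for each group mean). TOP2A, the topoisomerase that untangles chromosomes, was highest in THP-1, with 1128 ± 33.0 CPM in MV4-11, 997 ± 39.1 in Molm-14 and 1393 ± 132 in THP-1. The PCNA levels of THP-1 lay below those of the other lines with no overlap, and the TOP2A levels of THP-1 lay above them. MCM2, a helicase subunit, ran from 378 ± 33.7 CPM in THP-1 EV to 443 ± 49.6 in MV4-11 EV, and the MV4-11 libraries overlapped those of both other lines. RRM2, a subunit of ribonucleotide reductase, was at 288 ± 21.1 CPM in MV4-11, 205 ± 11.1 in Molm-14 and 186 ± 6.35 in THP-1 EV.

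E2F1, the activator of S phase genes, was at 50.2 ± 8.42 CPM in MV4-11, 37.1 ± 2.97 in Molm-14 and 52.2 ± 3.63 in THP-1 EV. CCNB1, cyclin B1, was at 243 ± 15.9, 290.0 ± 21.0 and 271 ± 32.7 CPM in the same order, and the THP-1 libraries overlapped those of both other lines. MKI67 codes for the proliferation marker Ki-67 and PLK1 for Polo-like kinase. MKI67 was at 517 ± 133, 465 ± 188 and 366 ± 110.3 CPM and PLK1 at 58.9 ± 11.2, 61.5 ± 10.3 and 48.9 ± 11.1 CPM. Relative to their means, these were the widest spreads between replicates of the 8 genes, and the lines overlapped for both. In the overexpression series MKI67 was at 928 ± 79.6 CPM in MV4-11 EV and 1005 ± 27.1 in Molm-14 EV, and PLK1 at 141 ± 11.2 and 147 ± 3.57 CPM.

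Per kilobase of exon, PCNA had the highest level of the 47 genes in MV4-11 EV and Molm-14 EV of both series (352 and 320.1 CPM per kb in the knockout series, 183 and 138 in the overexpression series). In THP-1 EV the highest was CDC20, the activator of the anaphase-promoting complex, at 243 CPM per kb, followed by TOP2A at 219. The lowest 2 places in each EV group fell to GINS3, POLA1 or FOXM1, which had 4.57 to 8.32 CPM per kb there. FOXM1 held such a place only in Molm-14 and THP-1 of the knockout series. In the overexpression series it was at 23.2 CPM per kb in MV4-11 EV and 21.8 in Molm-14 EV. The length used counts every annotated exon base of a gene, 15547 for POLA1 and 1403 for PCNA, and the order depends on it. GINS3 is a subunit of the helicase activator GINS, POLA1 is the catalytic subunit of the priming polymerase and FOXM1 is a transcription factor of mitotic genes.

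**Figure D1:**
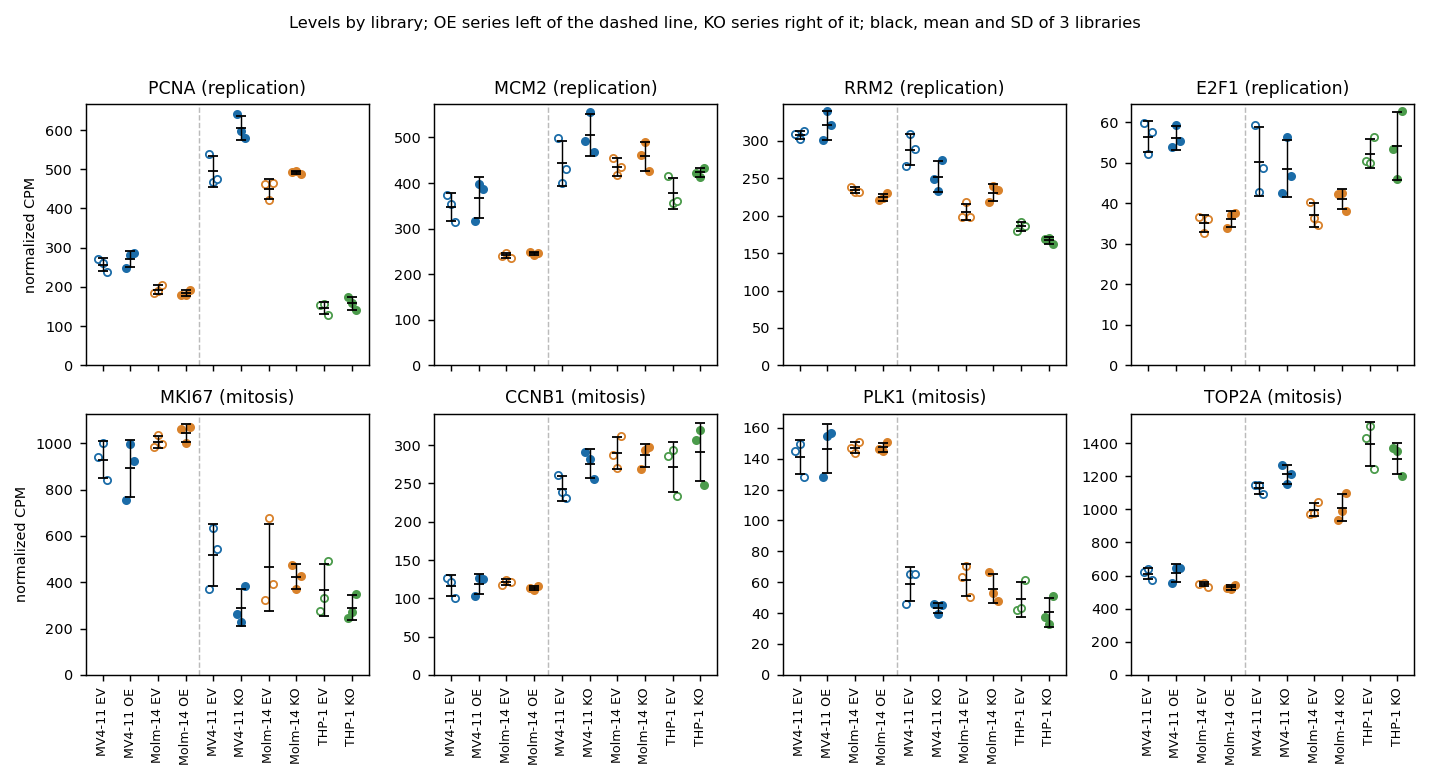
Levels of PCNA, MCM2, RRM2, E2F1, MKI67, CCNB1, PLK1 and TOP2A in the 10 groups, in CPM from 0. Each circle is 1 library (open for EV, filled for OE or KO; blue MV4-11, orange Molm-14, green THP-1), black marks give the mean ± SD (n = 3), and the dashed line separates the series. PCNA is at 129.6 to 174 CPM in the THP-1 libraries and at 421 CPM or more in the other knockout-series libraries.

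In MV4-11, miR-1 overexpression left none of the 47 genes called. In bulk RNA, fewer cycling cells and less transcript per cycling cell cannot be told apart, here and in what follows. The count was 0 of 32 replication and 0 of 15 mitosis genes by edgeR, 0 and 0 by DESeq2, and 0 and 0 at an unadjusted p below 0.05. Of all genes, 0.177% were called and 5.9% had such a p. The median effect was 0.04 on the log2 scale over the replication genes and 0.02 over the mitosis genes, against 0.01 over all genes tested. Effects ran from -0.17 (GINS3) to 0.12 (GINS1), and the 95% interval of each of the 47 lay within ± 0.5.

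GINS1, a GINS subunit, had the smallest p of the replication genes. It was at 66.6, 70.4 and 73.7 CPM in MV4-11 OE and at 69.7, 66.5 and 58.2 in EV, and the groups overlapped (log2 fold change 0.12, SE 0.06, FDR 0.93). Next was CDT1, the licensing factor that is destroyed once S phase begins, at 0.11 (FDR 0.95). Of the mitosis genes, TTK, the spindle checkpoint kinase MPS1, was at 63.6, 66.4 and 63.9 CPM in OE and at 59.2, 63.9 and 59.8 in EV (0.08, FDR 0.98). BUB1, another checkpoint kinase, was at 0.05. No gene of either class had groups that did not overlap, against 9.17% of all genes. The 2 libraries set apart by interferon-stimulated genes, 1 from each arm, also had the lowest mean log2 CPM of both classes in MV4-11, 6.66 and 6.66 for replication and 6.96 and 6.98 for mitosis, against 6.79 to 6.86 and 7.11 to 7.17 in the other 4. Without both, again 0 genes were called.

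In Molm-14 OE, 0 of 32 replication and 0 of 15 mitosis genes were called. Of the 32 replication genes 25 were lower, and of the 15 mitosis genes 12, with median log2 fold changes of -0.05 and -0.06 against 0 over all genes. No member was called by edgeR or DESeq2, and 2 of each class had an unadjusted p below 0.05. Of all genes, 0.0057% were called and 4.38% had such a p. The groups did not overlap for 9 of 32 replication and 3 of 15 mitosis genes, against 14.9% of all genes. All 47 effects lay between -0.15 and 0.06, each with its interval within ± 0.5. The share of counts on mitochondrial genes also separated these arms, at 3.65%, 3.50% and 3.76% in OE and 3.20%, 3.16% and 2.89% in EV, and its part in the lower values was not tested.

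The 9 fork genes were all lower with OE in Molm-14. POLE, the catalytic subunit of the leading-strand polymerase, was at 272, 267 and 264 CPM in OE and at 297, 283 and 302 in EV, without overlap (-0.13, SE 0.06, FDR 1.0). POLA1 was at 89.4 to 99.7 CPM against 103 to 105, also without overlap (-0.14, SE 0.06, FDR 1.0). CDK1 was at 158, 155 and 162 CPM against 163, 174 and 182, and each OE library lay below each EV library (-0.13, SE 0.05, FDR 1.0). TTK was at 103, 101 and 114 CPM against 118, 121 and 114, with overlap (-0.15, SE 0.06, FDR 1.0). In a fit of Molm-14 libraries alone, POLE (FDR 0.0177) and TTK (FDR 0.0428) were called, and the 2 fits differ in the libraries that estimate the spread. The share of all genes called in the fit of Molm-14 alone is not given here.

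None of the genes with a seed match was called in either line. POLA1 was at -0.06 in MV4-11 and -0.14 in Molm-14, ORC6 at -0.03 and -0.08, GINS4 at 0.01 and -0.06, and MKI67 at -0.06 and 0.06. The difference in OE effect between the lines was called for 0 of 47 genes by edgeR and DESeq2 (0.0456% of all genes), with 0 replication and 2 mitosis genes at an unadjusted p below 0.05 (5.3% of all genes). Those 2 were TTK, with a difference of 0.23 (FDR 0.73), and CDK1, with 0.17 (FDR 0.92).

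**Figure D2:**
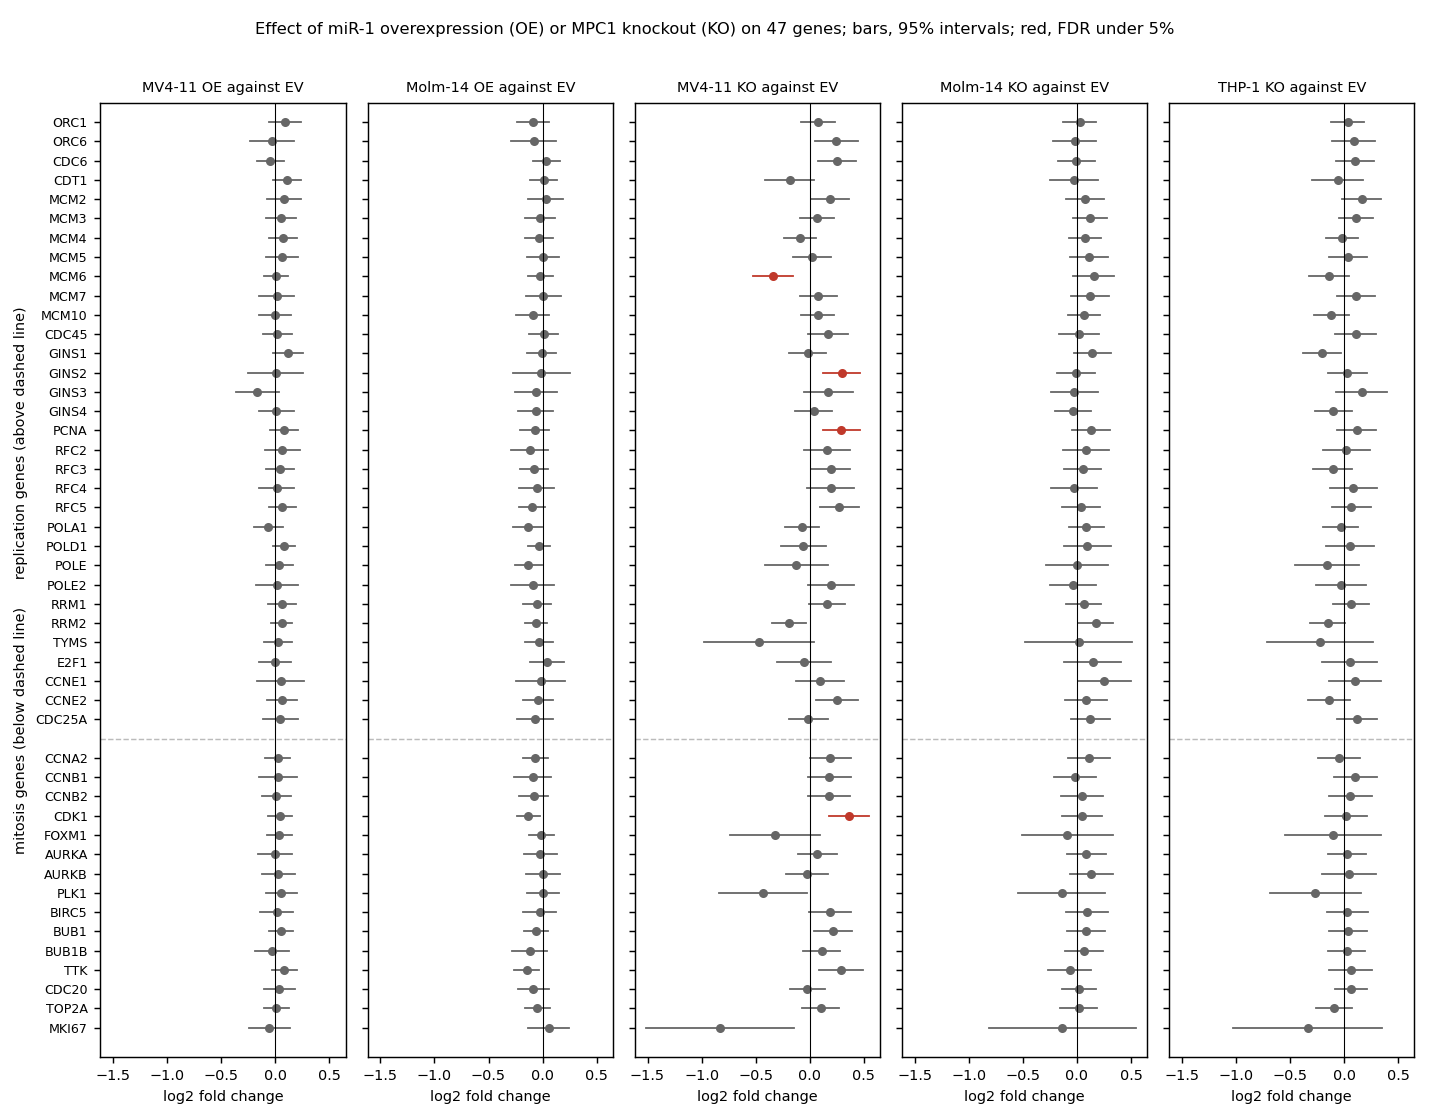
Log2 fold changes of the 47 genes in the 5 comparisons of OE or KO against EV, as points with 95% intervals, replication genes above mitosis genes. Red points have an FDR below 5%: MCM6, PCNA, GINS2 and CDK1 in MV4-11 KO, and none in the other 4 comparisons.

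In MV4-11, MPC1 knockout was the 1 comparison of treated against EV cells in which members were called, and the calls went in both directions. PCNA, GINS2 and CDK1 rose and MCM6 fell, each by less than 1.3-fold. That is 3 of 32 replication genes (9.38%) and 1 of 15 mitosis genes (6.67%), against 5.41% of all genes (3.17% higher and 2.24% lower). An unadjusted p below 0.05 was seen for 10 of 32 and 5 of 15 against 22.3% of all genes, and groups without overlap for 12 of 32 and 7 of 15 against 24.1%. The median effect was 0.08 over the replication genes and 0.11 over the mitosis genes, against 0.02 over all genes, and 21 of 32 and 10 of 15 were higher.

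Of the licensing genes, MCM6 was at 252, 334 and 331 CPM in MV4-11 EV and at 241, 226 and 258 in KO. EV replicate 1 lay within the range of the KO libraries, and the level fell by 0.34 on the log2 scale (SE 0.09, FDR 0.0294), 1.27-fold lower. The other subunits of the MCM ring, 5 genes, had effects from -0.09 (MCM4) to 0.19 (MCM2) and were not called. CDC6, the loading ATPase, and ORC6 were at 0.25 and 0.24 without a call (FDR 0.0830 and 0.133).

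Of the genes that activate the helicase, GINS2 was at 79.6, 68.7 and 76.5 CPM in EV and at 92.2, 92.5 and 91.1 in KO. The groups did not overlap and the level rose 1.23-fold (0.29, SE 0.08, FDR 0.0377). Exon bases of GINS2 are shared with GSE1 on the opposite strand, so its counts may hold reads of that gene. The other GINS subunits were at -0.02 (GINS1), 0.17 (GINS3) and 0.04 (GINS4), none called. Of the fork genes, PCNA was at 538, 469 and 476 CPM in EV and at 639.8, 597 and 579 in KO. These groups did not overlap either, and PCNA rose 1.22-fold (0.29, SE 0.08, FDR 0.0400). RFC5, a subunit of the factor that loads PCNA onto DNA, was at 0.27 (FDR 0.0663).

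For nucleotide supply, RRM2 was at 267, 309 and 289 CPM in EV and at 249, 233 and 275 in KO, with overlap (-0.19, FDR 0.136). TYMS, thymidylate synthase, was at 48.8, 84.0 and 79.1 CPM against 48.8, 42.4 and 60.8 (-0.47, FDR 0.26). Neither was called, nor was the G1/S cyclin gene CCNE2 at 0.25 (FDR 0.115) or E2F1 at -0.05.

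Of the mitosis genes, CDK1 was at 218, 183 and 185 CPM in MV4-11 EV and at 274, 252 and 226 in KO. All 3 KO libraries lay above the EV libraries, and CDK1 rose 1.28-fold (0.36, SE 0.09, FDR 0.0193). Its partner genes CCNA2 and CCNB1 were at 0.19 and 0.18 and were not called. The checkpoint kinases TTK and BUB1 were at 0.29 and 0.21 (FDR 0.0816 and 0.137). Lower values were seen for MKI67 and PLK1: MKI67 was at 373, 634 and 545 CPM in EV and at 263, 227 and 382 in KO (-0.83, SE 0.32, FDR 0.146), and PLK1 at 46.0, 65.6 and 65.1 against 45.8, 39.7 and 45.0 (-0.43, FDR 0.192). MKI67 overlapped between groups in EV replicate 1 and KO replicate 3, and PLK1 did not overlap. The interval of MKI67 reached from -1.51 to -0.14, so the size of its difference is poorly bounded.

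The share of counts on mitochondrial genes differed between the same MV4-11 groups without overlap, at 0.211%, 0.452% and 0.392% in EV and 0.161%, 0.140% and 0.202% in KO, and its part in the results was not tested. The EV and KO libraries nearest in that share, EV replicate 1 (0.211%) and KO replicate 3 (0.202%), had 252 and 258 CPM of MCM6, 373 and 382 of MKI67, 538 and 579 of PCNA, 218 and 226 of CDK1, and 79.6 and 91.1 of GINS2. That is 1 library per arm, chosen after the values were seen, and carries no test. The calls also depended on single libraries: without EV replicate 2, EV replicate 3, KO replicate 1 or KO replicate 2, 0 members were called, without EV replicate 1 there were 6 replication and 3 mitosis calls, and without KO replicate 3 there were 3 and 1. In a fit of MV4-11 alone the count was 0 in both classes.

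**Figure D3:**
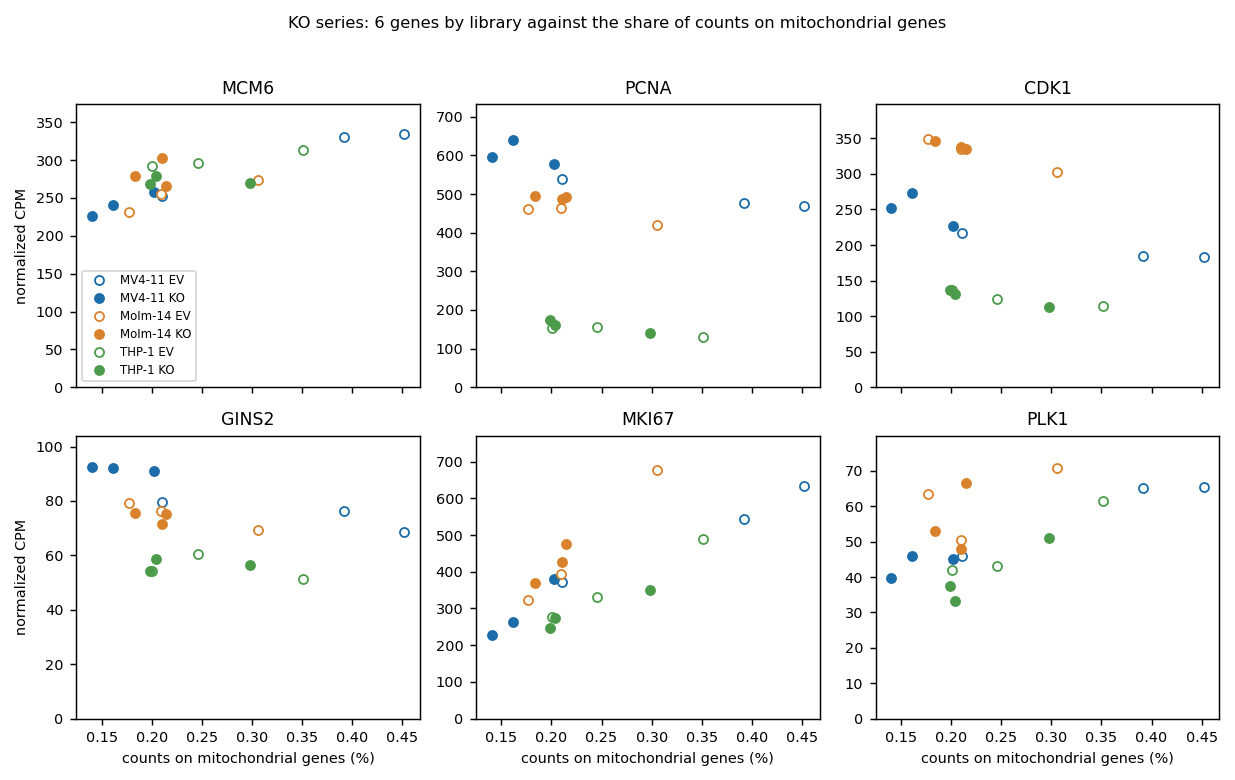
Levels of MCM6, PCNA, CDK1, GINS2, MKI67 and PLK1 (CPM) in the 18 knockout-series libraries against the percent of counts on mitochondrial genes. Each circle is 1 library (open EV, filled KO; blue MV4-11, orange Molm-14, green THP-1). The 3 MV4-11 KO libraries sit at 0.140% to 0.202% and the 3 MV4-11 EV libraries at 0.211% to 0.452%.

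In Molm-14, MPC1 knockout left 0 of 32 replication and 0 of 15 mitosis genes called by edgeR and by DESeq2, against 2.4% of all genes, and 2 and 0 had an unadjusted p below 0.05, against 10.7%. RRM2 was at 218, 240.2 and 234 CPM in KO and at 198, 218 and 199 in EV, where the lowest KO library lay just above the highest EV library (0.17, SE 0.08, FDR 0.401). CCNE1, cyclin E1, was at 32.1, 34.1 and 38.1 CPM against 31.8, 24.8 and 31.4 (0.25, SE 0.12, FDR 0.431). Of the mitosis genes, the smallest p values were those of AURKB, Aurora kinase B, at 0.13 (FDR 0.734) and CCNA2 at 0.11 (FDR 0.773). The medians were 0.07 and 0.05 against 0 over all genes, and the intervals of 43 of 47 lay within ± 0.5, the exceptions being TYMS, FOXM1, PLK1 and MKI67.

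In THP-1, the knockout left 0 and 0 genes called by both tools, against 0.0897% of all genes, and 1 replication gene and 0 mitosis genes had an unadjusted p below 0.05, against 8.01%. That gene was GINS1, at 74.4, 66.1 and 61.3 CPM in KO and 80.7, 81.6 and 70.1 in EV, with overlap (-0.21, SE 0.09, FDR 0.557). RRM2 was at 168, 171 and 162 CPM against 179, 192 and 186, without overlap (-0.15, FDR 0.65). Of the mitosis genes, PLK1 was at -0.27 (FDR 0.77) and TOP2A at -0.09 (FDR 0.799). Both class medians were 0.03, that of the mitosis genes falling to -0.05 without EV replicate 3, and the same 4 genes as in Molm-14 had intervals beyond ± 0.5.

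The KO effects of the lines were also compared with each other. The difference between MV4-11 and Molm-14 was called for MCM6 alone, 1 of 32 replication and 0 of 15 mitosis genes, against 1.48% of all genes, and 4 and 2 had an unadjusted p below 0.05, against 14.2%. MCM6 was at 231, 274 and 255 CPM in Molm-14 EV and at 266, 279.5 and 303 in KO (0.16, FDR 0.613), so the MV4-11 effect lay 0.50 below it (-0.50, SE 0.13, FDR 0.0484). In THP-1, MCM6 was at 292, 296 and 313 CPM in EV and at 268, 279 and 269 in KO (-0.14, FDR 0.709). The MCM6 difference was lost when libraries were scaled by total counts (FDR 0.0567). Against THP-1, 0 genes differed in KO effect for MV4-11 (0.193% of all genes) or for Molm-14 (0.766%), by edgeR and DESeq2. At an unadjusted p below 0.05 there were 3 replication genes and 1 mitosis gene for MV4-11 (9.05% of all genes), and 3 and 0 for Molm-14 (7.8%).

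Other genes of the same processes were counted from wider lists. Of 45 other replication genes, 6 (13.3%) were called in MV4-11 KO, 4 higher and 2 lower, against the 5.41% of all genes. TIMELESS, a fork protection factor, was at 79.0, 118 and 122 CPM in EV and at 70.0, 61.5 and 75.9 in KO, without overlap, and fell by 0.61 on the log2 scale (SE 0.12, FDR 0.00523). CLSPN, which codes for the checkpoint adaptor claspin, fell by 0.34 (FDR 0.0231), while DCK, deoxycytidine kinase of the salvage pathway, rose by 0.45 (FDR 0.00684), ORC3 by 0.37 (FDR 0.0400) and RPA3 by 0.34 (FDR 0.0492). Of 53 other mitosis genes, 2 (3.77%) were called, which is below that share. They were the spindle checkpoint genes BUB3 and MAD2L1, while of the 4 members of the spindle checkpoint and mitotic exit 0 were called. BUB3 was at 592, 556 and 527 CPM in EV and at 789, 756 and 696 in KO and rose by 0.42 (FDR 0.00432), and MAD2L1 rose by 0.34 (FDR 0.0319).

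Between the EV groups of different lines, more of the 47 genes differed. In the overexpression series, 22 of 32 replication genes (68.8%; 14 higher in MV4-11 EV than in Molm-14 EV, 8 lower) and 7 of 15 mitosis genes (46.7%; 3 higher, 4 lower) were called, against 64.8% of all genes (32.9% higher, 31.9% lower). Without MV4-11 EV replicate 3, which stood apart, the counts were 20 and 7, and the mitosis count was 4 without MV4-11 EV replicate 1 or without Molm-14 EV replicate 3. In the knockout series the same comparison called 21 replication genes (65.6%; 6 higher, 15 lower) and 6 mitosis genes (40.0%; 2 higher, 4 lower), against 61.7% of all genes (30.1% higher, 31.6% lower). The mitosis splits depended on scaling: by library totals they were 6 higher and 3 lower in the overexpression series and 3 and 3 in the knockout series. The replication shares were near the share over all genes, and the shares of the 15 mitosis genes were below it. That was not so for mitosis genes in general: of 53 other mitosis genes, 40 (75.5%) were called in the overexpression series. In the knockout series 27 of them (50.9%) were called.

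The 2 series share lines but no libraries, and 17 of the 47 genes were called in both. Of the 17, 16 (94.1%) had the same direction, against 97.8% of all genes called in both. Those 16 are 55.2% of the 29 called in the overexpression series and 59.3% of the 27 in the knockout series. Over all genes, calls shared in the same direction made up 74.4% and 82.3%. Higher in MV4-11 EV in both were POLD1, MCM5, MCM6, RRM2, E2F1, CCNE1 and AURKB, and lower in both were RFC3, RFC5, GINS3, GINS4, MCM3, CCNE2, TTK, CDK1 and CDC20. RFC3, another subunit of the clamp loader, was at 69.5, 68.0 and 63.7 CPM in MV4-11 EV and at 125, 127 and 136 in Molm-14 EV of the overexpression series (-0.95), and at 73.2, 84.3 and 71.2 against 171, 175 and 187 in the knockout series (-1.22). There was no overlap between the lines in either series.

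POLD1, the catalytic subunit of polymerase delta, went the other way, with exon bases shared with a gene on the same strand. It was at 241, 226 and 236 CPM in MV4-11 EV and 128, 132 and 129.6 in Molm-14 EV of the overexpression series (0.85), and at 137 to 167 against 96.4 to 105 in the knockout series (0.61). E2F1 was higher in MV4-11 by 0.68 and 0.44, CCNE1 by 0.55 and 0.88 and RRM2 by 0.40 and 0.49, in the order of the series. Among the mitosis genes, TTK was at 59.2, 63.9 and 59.8 CPM in MV4-11 EV and 118, 121 and 114 in Molm-14 EV (-0.94), and at 144, 128 and 123 against 236, 238 and 262 (-0.90). CDK1 was at -0.61 and -0.75, CDC20 at -0.32 and -0.36, and AURKB at 0.31 and 0.26. CDT1 was the gene called in opposite directions, at 0.27 and -0.33. It was at 187, 159 and 194 CPM in MV4-11 EV against 149, 149 and 149.7 in Molm-14 EV, and at 57.5, 55.9 and 55.4 against 67.9, 76.3 and 67.8, and the lines did not overlap in either series.

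**Figure D4:**
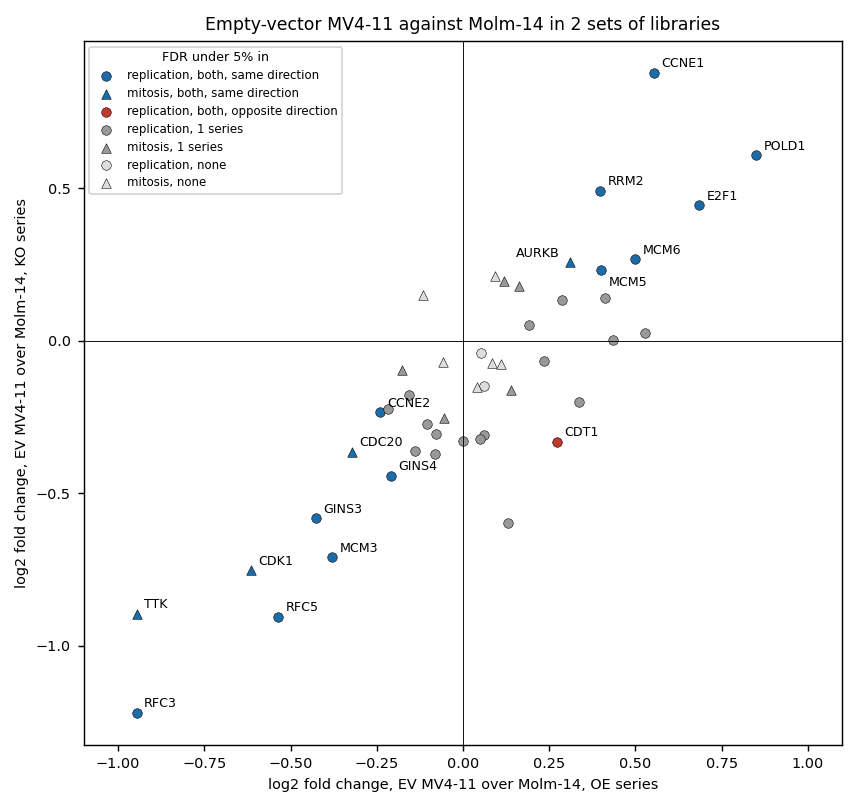
Log2 fold changes of MV4-11 EV over Molm-14 EV for the 47 genes, in the overexpression series (horizontal) and the knockout series (vertical); circles are replication genes and triangles mitosis genes. Blue marks the 16 genes called in both series in 1 direction, red marks CDT1, called in both in opposite directions, and grey and light symbols those called in 1 series or none.

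THP-1 differed from the FLT3-ITD lines most in a few genes of large fold. Against THP-1 EV, 20 of 32 replication genes (12 higher, 8 lower) and 10 of 15 mitosis genes (4 higher, 6 lower) were called in MV4-11 EV, against 67.5% of all genes (32.9% higher, 34.6% lower). For Molm-14 EV the counts were 23 (18 higher, 5 lower) and 8 (4 higher, 4 lower), against 69.6% of all genes (34.1% higher, 35.5% lower), and with DESeq2 12 of 18 replication calls were higher. CDC20 was at 515, 454 and 495 CPM in THP-1 EV, 107, 95.7 and 101 in MV4-11 EV and 138, 130.1 and 124 in Molm-14 EV, which is 4.81-fold and 3.73-fold higher in THP-1 (-2.27 and -1.90). It was the largest difference of the 47 genes in both comparisons. AURKB lay in the opposite direction, at 17.3, 14.5 and 14.1 CPM in THP-1 EV against 55.1, 49.4 and 49.3 in MV4-11 and 45.1, 42.3 and 41.7 in Molm-14, 3.33-fold and 2.79-fold lower in THP-1 (1.74 and 1.48).

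Of the replication genes, PCNA was at 153, 155 and 129.6 CPM in THP-1 EV, and 3.38-fold and 3.07-fold higher in MV4-11 and Molm-14 (1.76 and 1.62). MCM10, which helps activate the helicase, was at 71.2, 65.2 and 67.0 CPM in THP-1 EV against 148, 139 and 143 in MV4-11 and 181, 168 and 190.4 in Molm-14 (1.08 and 1.41). CDK1 was at 136, 125 and 115 CPM in THP-1 EV, and higher by 0.64 in MV4-11 and 1.39 in Molm-14. None of these genes overlapped between THP-1 and the other lines. In THP-1 KO, CDC20 was at 501, 507 and 522 CPM and PCNA at 174, 160.2 and 141, and both overlapped the THP-1 EV libraries.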

How the data were processed

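Total RNA of 30 libraries was read with a stranded, ribosomal RNA depleted kit. The authors describe trimming with cutadapt 1.16, alignment with STAR 2.7.6a to GRCh38 (Ensembl release 102) and raw read counts per gene from featureCounts 1.6.3, in 1 table per series. The numbers of genes listed, 60675 and 58051, differ, and whether both series used that release is not stated. The counting strand is not given in the sources used here, and 17 of the 47 genes share exon bases with another gene, so their counts may hold reads of a neighbor. Genes with low counts were removed with filterByExpr, and edgeR 4.0.16 (TMM scaling, robust quasi-likelihood fit, 1 mean per group, all libraries of a series together, two-sided) gave effects and Benjamini-Hochberg adjusted p. DESeq2 1.42.0, other scalings, no filter, a replicate block, each line alone and each library left out were alternatives, and leaving out both MV4-11 libraries with high interferon-stimulated genes was added after seeing the data. The fit was tested on simulated counts. The genes and lists were chosen with earlier results of these data known. Named were MPC1, 8 representative genes, up to 8 called genes per class and comparison or else the 2 with the smallest p, the 3 called genes per class with the largest effect between EV lines, and up to 3 called in each direction from wider lists. Others, such as the remaining subunits of a complex, were named after their values were seen. In THP-1, KO and EV libraries of the same number deviated together (r = 0.37, 0.26 and 0.58 for numbers 1, 2 and 3). The numbers were taken to pair them, while those of the other lines were not. THP-1 KO replicate 1 also deviated with EV replicate 2 (r = 0.36). In MV4-11 of the overexpression series, r for numbers 1, 2 and 3 was -0.36, 0.03 and -0.65. There OE replicate 1 deviated with EV replicate 3 (r = 0.68) and OE replicate 3 with EV replicate 2 (r = 0.62). In MV4-11 of the knockout series, r for the same numbers was 0.01, -0.52 and 0.19, and KO replicate 2 deviated with EV replicate 1 (r = 0.45). The main fit used no pairing of any line. Motif windows and microRNA matches were found by script. The precision of each effect is set by 3 libraries per group and the depths above.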

Additional observations from a re-analysis of the deposited data

Results flagged for a closer look

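The KO effects of MV4-11 and Molm-14 differed for 1 of the 47 genes and for 1 gene of the wider replication list, by a test of the difference itself. For MCM6 the difference was -0.50 on the log2 scale (SE 0.13, edgeR FDR 0.0484), with MV4-11 KO libraries lower than EV on average and Molm-14 KO libraries higher. The difference was called without MV4-11 EV replicate 1, MV4-11 KO replicate 3 or Molm-14 EV replicate 2, and not when any other library of these lines was left out. For TIMELESS it was -0.79 (SE 0.17, edgeR FDR 0.0139), with 79.0, 118 and 122 CPM in MV4-11 EV, 70.0, 61.5 and 75.9 in MV4-11 KO, 132, 159.9 and 129.9 in Molm-14 EV, and 154, 158 and 165 in Molm-14 KO. Its FDR was 0.0584 without MV4-11 EV replicate 3 and 0.0567 without Molm-14 EV replicate 3. The share of counts on mitochondrial genes separated the MV4-11 arms, at 0.211% to 0.452% in EV and 0.140% to 0.202% in KO. In Molm-14 the arms overlapped, at 0.177% to 0.306% in EV and 0.184% to 0.214% in KO. The part of that share in both differences was not tested.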

How the results depend on the processing

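The sign of small effects of named genes depended on single libraries. In MV4-11 OE, GINS4 had a mean of 61.9 CPM against 61.6 in EV, but EV replicates 1 and 2 were at 66.1 and 62.8. Of the class medians, 299 moved by less than the spread between replicates and 51 by more, and the mitosis medians, near 0, changed sign in MV4-11 OE (to -0.02 without EV replicate 3) and THP-1 KO (to -0.05 without EV replicate 3). Scaling by library totals turned the split of the mitosis calls between the EV lines of the overexpression series from 3 higher and 4 lower to 6 and 3. Of the recomputed counts of called genes, 318 stayed within 1.5 times the reported count and 32 moved. In MV4-11 KO, the replication count of 3 was 6 with the replicate block and 0 with the line alone, and 0 to 6 when leaving out 1 library. The mitosis count of 1 was 3 without the filter, 5 with the replicate block and 0 with the line alone, and 0 to 3 when leaving out 1 library. For the KO effect of MV4-11 against Molm-14, the replication count of 1 was 0 with scaling by library totals, 2 with DESeq2 and 0 to 2 when leaving out 1 library, and the mitosis count of 0 was 1 with the replicate block (TTK, 0.36, FDR 0.0252). In Molm-14 OE the counts of 0 were 1 and 1 with the line alone. Between the EV lines of the overexpression series, the mitosis count of 7 was 4 to 7 when leaving out 1 library, 4 without MV4-11 EV replicate 1 or Molm-14 EV replicate 3, and 10 without MV4-11 OE replicate 1 and MV4-11 EV replicate 3 together. The replicate numbers pair only THP-1 libraries, where the block changed no call, so for the other lines it joins libraries that share a number only. Of the recomputed effects in a subset of the named genes, 588 kept their side of the threshold, 78 lost it and 2 gained it. Other named genes gained a call as well. In MV4-11 KO, TTK and PLK1 did so with no filter and with the replicate block. CDC6 and RFC5 did so with the replicate block and without EV replicate 1. Other scalings moved the median of all genes by at most 0.084. The causes of these changes were not tested. The shares of all genes called in the alternative fits are not given here. The knockout series had 3 libraries per group and at most 9106478 counts in a library. Calls of members in MV4-11 KO changed when single libraries were left out. An absent call does not show that a gene did not change.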

Other observations

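Some genes that control G1 differed widely in level between the lines. CDKN2A, which codes for the CDK inhibitor p16, had 3753 counts over the 3 MV4-11 EV libraries of the overexpression series and 852 over those of the knockout series, and 0 in Molm-14 EV of both series and in THP-1 EV. CDKN2B, its neighbor, had 139 and 74 counts in MV4-11 EV and 0 in the others. CCND2, cyclin D2, was at 0.798, 0.748 and 2.54 CPM in THP-1 EV, 78.2, 76.9 and 68.9 in MV4-11 EV and 348, 422 and 359 in Molm-14 EV.

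Some replication-dependent histone genes of chromosome 6 had next to no counts in Molm-14. In the overexpression series, 6 of them were H3C3, H4C6, H3C7, H2BC9, H3C8 and H2BC10, between positions 26045384 and 26272931 (GRCh38). Each had at most 1 count in any Molm-14 library and 1453 to 5070 in the MV4-11 libraries, OE and EV together. In the knockout series, H4C6 and H3C7 had at most 2 counts in any Molm-14 library. They had 195 to 3263 in the libraries of MV4-11 and THP-1, KO and EV together. H2BC9 had 3 counts over the Molm-14 EV libraries of that series and 7500 over those of MV4-11 EV. Histone genes are near-identical copies, so reads can be lost or divided among them in counting. The part of this in the low counts was not tested. In MV4-11 KO, H1-3 was higher than in EV by 0.47 (edgeR FDR 0.0118) and H2BC8 by 0.37 (edgeR FDR 0.0184), 2 of 55 histone genes tested (3.64%), against 5.41% of all genes.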
